A study of Mus musculus with 8 samples.

Results

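The genes described here encode the steps that take glucose into the cell and break it down to pyruvate and lactate, the pentose phosphate pathway that branches from them, and the pyruvate dehydrogenase complex with its regulators. They were a list of 48 gene symbols, looked up among the 45706 gene lines of the count table, and all 48 were found, each on 1 line. All 48 also passed the filter on low counts and were tested. The cells were muscle stem cells, which lie beside the fibres and rebuild them after injury, from a study on how metabolism bears on chromatin in these cells during regeneration. Cultured cells gave 3 libraries: they had been sorted and then kept for 48 h on hydrogels with a stiffness of 12 kPa, in growth medium with 20% fetal bovine serum made from a low-glucose medium and F-10. Freshly sorted cells gave 5 libraries. All cells came from hindlimb muscle of wild-type C57BL/6 females aged 8 to 12 weeks, sorted as positive for α7-integrin and CD34 and negative for CD45, CD11b, Sca1 and CD31. The labels do not say whether libraries came from separate animals, so the p-values reflect only how far these samples vary, and that variation may be technical.

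Glycolysis splits glucose into pyruvate in the cytosol. Hexokinase and phosphofructokinase commit sugar to it, the enzymes from aldolase to pyruvate kinase harvest ATP, and lactate dehydrogenase returns the reduced cofactor by making lactate. Pyruvate that instead enters the mitochondrion is turned into acetyl-CoA by the pyruvate dehydrogenase complex, which kinases switch off and phosphatases switch on. The pentose phosphate pathway draws sugar phosphate off near the start, giving NADPH and ribose for nucleotides. Several steps have isozymes from different genes, and in adult muscle the fibres favour their own forms. Quiescent muscle stem cells are known for a low rate of glycolysis, which goes up when they are activated.

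Of the fresh libraries, replicates 1 to 3 were sequenced in a run of their own (run 1), and replicates 4 and 5 were sequenced on the lane of the cultured cells (run 2). Total counts were 16654631 to 20068154 in cultured and 13919440 to 20055185 in fresh libraries. Genes with a count numbered 15415 to 17852 in cultured libraries, 32710 to 34689 in run-1 fresh libraries and 20480 to 20898 in run-2 fresh libraries. Mitochondrial ribosomal RNA took 11.1 to 18.4% of the counts in cultured libraries, 5.25 to 10.5% in run-1 fresh libraries and 23.2 to 26.5% in run-2 fresh libraries. All 8 markers of muscle stem cells had counts in every library, with a summed level of 1055 to 1178 CPM (counts scaled by library size) in cultured and 4111 to 5559 CPM in fresh cells. The summed levels of markers of most other cell types were also lower in culture. The 8 pericyte and smooth muscle markers summed to 33.7 to 51.6 CPM in cultured and 806 to 3187 CPM in fresh libraries, with Abcc9 and Kcnj8 at 0 in culture. The 7 fibro-adipogenic markers summed to 7.59 to 19.0 CPM in cultured and 878 to 1203 CPM in fresh libraries, with Ly6a and Pi16 at 0 in culture. The 6 Schwann cell markers summed to 13.2 to 33.8 CPM in cultured and 443 to 2021 CPM in fresh libraries, with Sox10 and S100b at 0 in culture. Endothelial markers summed to 0.772 to 41.2 CPM in cultured and 82.8 to 125 CPM in fresh libraries, and immune markers to 0.255 to 5.92 CPM in cultured and 25.6 to 73.4 CPM in fresh libraries. Of these, 3 of 6 endothelial and 2 of 6 immune markers tested fell. The summed level of the 12 muscle fibre markers overlapped, at 79.3, 26.2 and 20.1 CPM in cultured replicates 1 to 3 and 42.0 to 51.4 CPM in fresh libraries. Only 5, 4 and 10 of these 12 had a count in cultured replicates 1 to 3, against 12 in every fresh library, and 4 of them fell and none rose. Erythroid markers summed to 0 to 0.612 CPM in cultured and 0.0651 to 2.54 CPM in fresh libraries. In such bulk libraries, fewer cells of a type and less RNA per cell cannot be told apart, and the part of these other cells in the results that follow was not tested.

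The cultured libraries held more RNA of the glycolytic steps from aldolase on and of the NADPH-giving arm of the pentose phosphate pathway, and less of the regulators that act on phosphofructokinase and on pyruvate dehydrogenase. In edgeR's quasi-likelihood test with sequencing run as a term and Benjamini-Hochberg adjustment over 19054 genes, 14 of the 48 genes rose in culture at an adjusted p under 0.05, which is 29.2% of them, and 8.87% of all genes tested rose. Another 9 fell, which is 18.8% of them, against 18.0% of all genes tested. For the other 25 the adjusted p was 0.05 or more, which does not show that they did not change. Fewer genes passed in each direction without fresh replicate 4 or 5, among the 48 and among all genes tested. Either fit leaves 1 fresh library in run 2. In the fit of all 8 libraries, the share that fell was near that of all genes and the share that rose was above it. The 48 genes were chosen with earlier results of these data known, so these shares describe the list and do not test it. Of the 13 genes from aldolase to lactate dehydrogenase 9 rose and 1 fell, while of the 6 kinases and phosphatases of pyruvate dehydrogenase 3 fell and none rose. Without regard to the test, the cultured libraries lay above all fresh ones for 17 of the 48 genes (13.7% of all genes tested), below all of them for 14 (26.1% of all genes tested) and overlapped them for 17. The median log2 fold change of cultured over fresh cells was 0.16 for the 48 genes and -0.21 for all genes tested. With no scaling factors these medians were 0.56 and 0.03, and over all genes 2452 rose and 2857 fell, against 1691 and 3431 in the fit with TMM factors. Because only run 2 held cultured cells, the fold changes set the cultured libraries against fresh replicates 4 and 5, and replicates 1 to 3 add to the estimate of the spread.

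**Figure D1:**
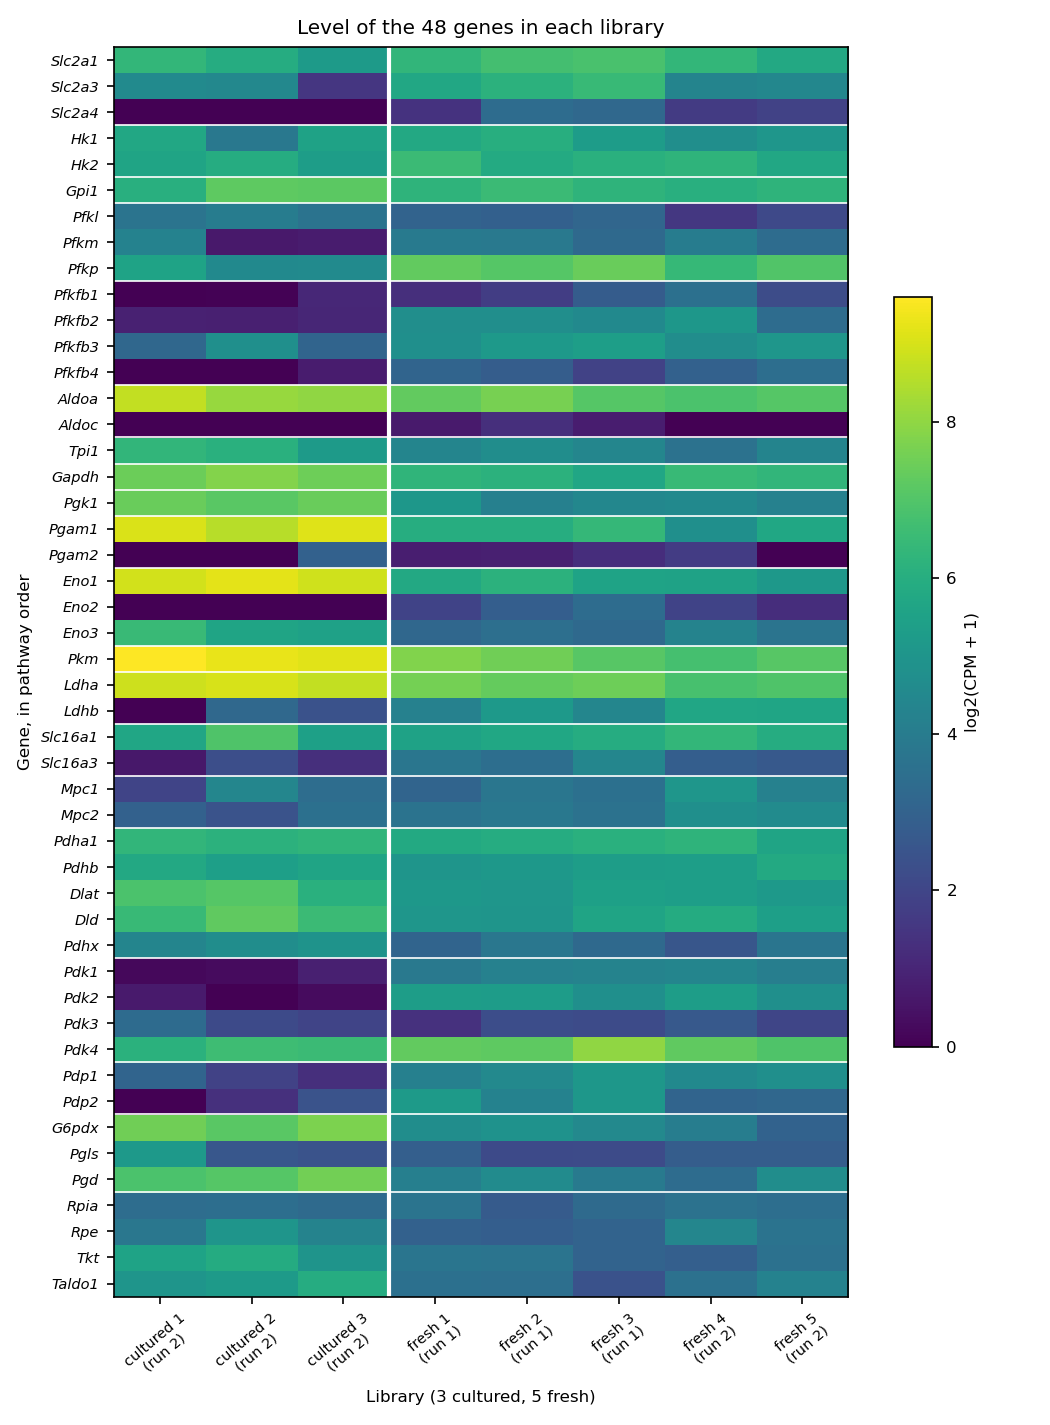
Level of each of the 48 genes (rows, in pathway order) in the 3 cultured and the 5 fresh libraries (columns), as log2(CPM + 1), where colour runs from dark (0) to yellow (high). The cultured columns are brighter from Aldoa to Ldha, other than at Aldoc, Pgam2 and Eno2, and for G6pdx and Pgd, and darker for Pfkfb2, Pdk1 and Pdk2.

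**Figure D2:**
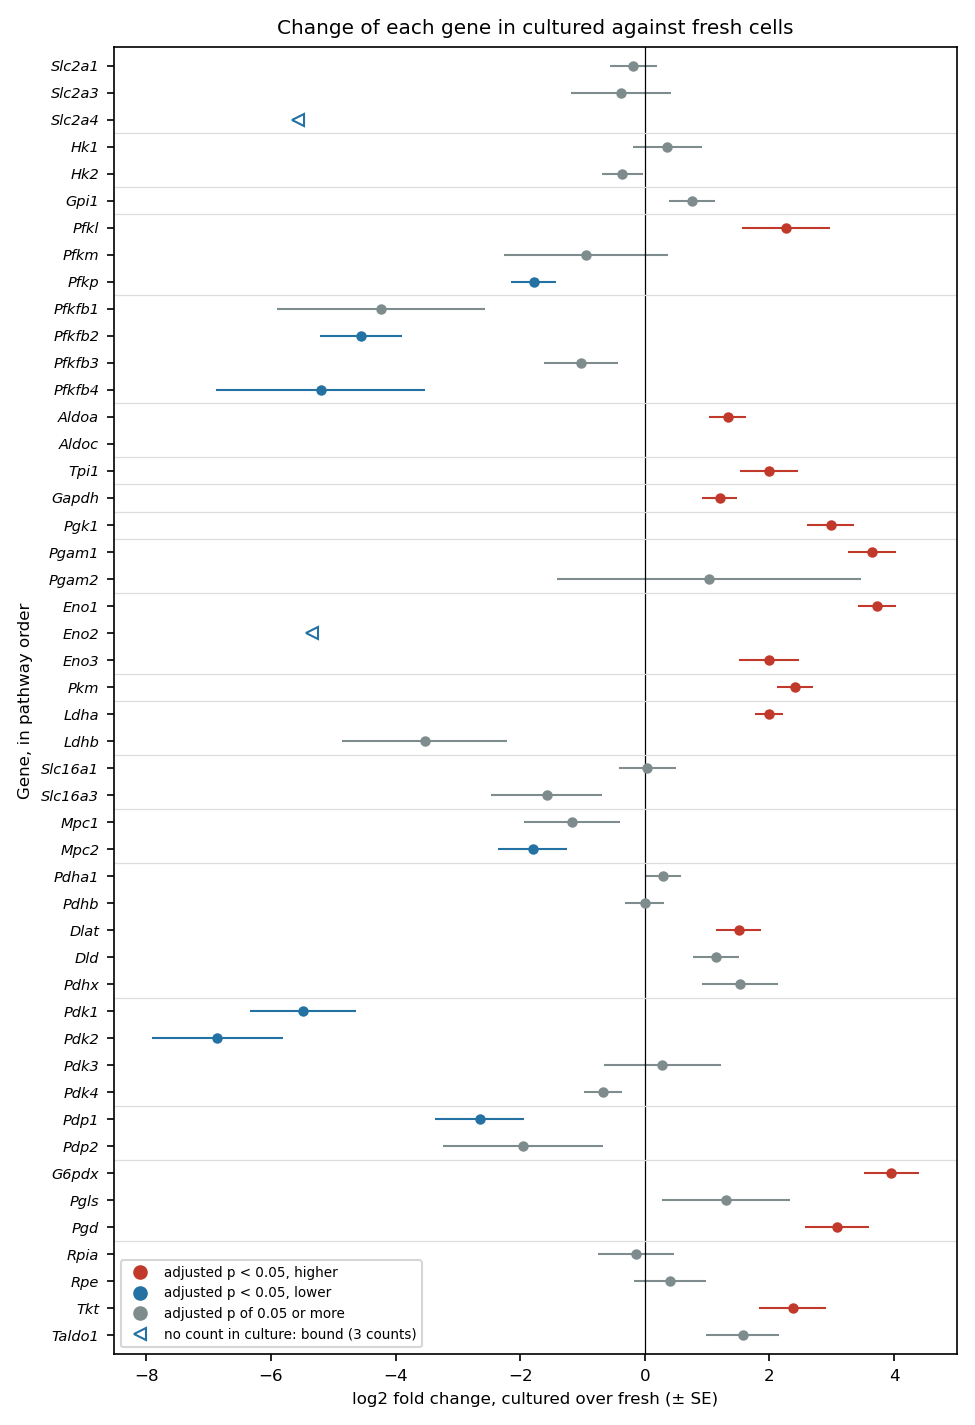
Log2 fold change of cultured over fresh cells with its standard error for each gene, in pathway order, where red marks the 14 genes that rose, blue the 9 that fell and grey the 25 that passed in neither direction. Open triangles are the bounds for Slc2a4 and Eno2, which had no count in culture, and Aldoc has no point because it had no count in any run-2 library.

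Of the genes of glucose uptake and of the first phosphorylation, only the insulin-responsive transporter Slc2a4 (GLUT4) passed the test. Slc2a4 had no count in the 3 cultured libraries, against 1.65, 9.62, 8.46, 2.21 and 2.67 CPM in fresh replicates 1 to 5. Taken against 3 counts over the cultured libraries, or 0.0517 CPM, it was at least 47.2-fold lower in cultured cells than in the run-2 fresh libraries (adjusted p = 0.00898, edgeR). Fresh replicate 1, which had the lowest sums of pericyte, Schwann, fibro-adipogenic and immune markers of the fresh libraries, also had the lowest Slc2a4, at 0.183 times the mean of fresh replicates 2 and 3. Fresh replicates 4 and 5 had higher sums of these markers (pericyte 2114 and 1970 CPM, against 806 CPM), and Slc2a4 of 2.21 and 2.67 CPM. Over the 9 genes that fell, the ratio of replicate 1 to that mean ran from 0.183 to 1.69 (median 0.958). Which cells gave the Slc2a4 RNA was not tested. Slc2a1 (GLUT1), the basal transporter, had 80.1, 60.8 and 36.1 CPM in cultured replicates 1 to 3, against 79.0, 105, 113, 80.4 and 53.9 CPM in fresh replicates 1 to 5. These ranges overlapped, and the log2 fold change was -0.19 ± 0.38 (SE, adjusted p = 0.770). Slc2a3 (GLUT3) had 22.9, 21.4 and 1.83 CPM in cultured libraries and 52.4, 70.5, 86.4, 19.3 and 20.8 CPM in fresh ones, and its level differed more between the runs of fresh cells than between cultured and run-2 fresh cells. Hexokinase traps glucose as its phosphate. Hk1 had 53.0, 13.2 and 45.2 CPM in cultured libraries and 25.5 to 63.2 CPM in fresh ones. Hk2 had 47.4, 60.9 and 40.0 CPM in cultured replicates 1 to 3, against 92.4, 57.6, 66.9, 74.3 and 52.4 CPM in fresh replicates 1 to 5, with a log2 fold change of -0.36 ± 0.33 (adjusted p = 0.471). Per kb of transcript, Hk2 supplied 51.0% ± 21.9 of the hexokinase level in cultured and 53.7% ± 9.996 in fresh cells (SD, n = 3 and 5). These means cover uneven libraries, since Hk2 took 38.5, 76.3 and 38.2% in cultured replicates 1 to 3 and 38.9 to 67.0% in fresh libraries. Gpi1, the isomerase that follows, had 66.1, 148 and 145 CPM in cultured libraries and 66.2 to 92.6 CPM in fresh ones. Cultured replicates 2 and 3 lay above every fresh library and replicate 1 among them, and the log2 fold change of 0.76 ± 0.37 (adjusted p = 0.159) passed the threshold only without cultured replicate 1 (1.12, adjusted p = 0.0115).

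At phosphofructokinase, the committed step, the main isozyme fell in culture. Pfkp, the platelet form, had 45.8, 22.6 and 23.4 CPM in cultured replicates 1 to 3, against 154, 133, 169, 84.7 and 126 CPM in fresh replicates 1 to 5. Every cultured library lay below every fresh one, and Pfkp fell with a log2 fold change of -1.78 ± 0.36 (adjusted p = 0.00774, edgeR). The adjusted p was 0.0519 without fresh replicate 5. Pfkl, the liver form, had 12.0, 15.1 and 11.6 CPM in cultured libraries, against 7.24, 6.75, 7.92, 1.96 and 3.39 CPM in fresh ones. It rose with a log2 fold change of 2.27 ± 0.70 (adjusted p = 0.0425), with no overlap between the groups, but that call held in only 9 of 21 alternatives. Leaving out any of the fresh libraries ended it (adjusted p = 0.0722, 0.0841, 0.0772, 0.196 and 0.0999 without replicates 1 to 5), as did leaving out cultured replicate 2 (0.0585), and against run-1 fresh libraries alone its log2 fold change was 0.88. Pfkm, the muscle form, had 18.2, 0.566 and 0.662 CPM in cultured libraries and 8.70 to 15.5 CPM in fresh ones. Cultured replicate 1 was thus above the fresh range and the other two far below it, and that library also had the highest summed muscle fibre markers, 79.3 CPM, although only 5 of the 12 had a count in it. The log2 fold change of Pfkm was -0.94 ± 1.32 (adjusted p = 0.646) with it and -4.27 (adjusted p = 0.00245) without it. Exons of Pfkp overlap those of Pitrm1 on the other strand over 748 bases, and counting is not stated to use strand.

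The 4 Pfkfb genes encode the bifunctional enzymes that make and remove fructose bisphosphate of the regulatory kind, the main activator of phosphofructokinase, and 2 of them fell in culture. Pfkfb2 (chr1:130689182-130729253, minus strand, GRCm38) had 0.843, 0.772 and 1.02 CPM in cultured replicates 1 to 3, against 26.0, 26.0, 22.7, 32.4 and 9.38 CPM in fresh replicates 1 to 5. The lowest fresh library was thus still well above the highest cultured one, and the log2 fold change was -4.56 ± 0.66 (adjusted p = 0.00199, edgeR). Leaving out fresh replicate 4 gave -3.36 and leaving out fresh replicate 5 gave -5.18, both past the threshold. A predicted gene, Gm29427, shares exon bases with Pfkfb2 on the same strand. Pfkfb4 had 0, 0 and 0.662 CPM in cultured libraries, against 7.46, 6.08, 2.76, 6.82 and 9.97 CPM in fresh ones. It fell with a log2 fold change of -5.20 ± 1.67 (adjusted p = 0.0488), and its 13 counts in culture were all in replicate 3. The value was -4.57 without cultured replicate 1 and -4.58 without replicate 2, while without replicate 3 it was -10.17, a size set by the prior count since no count in culture was left. Its call held in 10 of 21 alternatives, and ended without any of the fresh libraries (adjusted p = 0.0853, 0.0854, 0.0785, 0.116 and 0.152 without replicates 1 to 5) and without cultured replicate 2 (0.0615). Pfkfb1 had 0, 0.0515 and 1.07 CPM in cultured libraries, below the 1.42 to 10.7 CPM of fresh ones, and its log2 fold change of -4.23 ± 1.66 missed the threshold (adjusted p = 0.0915), which it passed without cultured replicate 3 (-7.74, adjusted p = 0.0109). Pfkfb3, the isozyme best known for favouring glycolysis, had 8.11, 26.1 and 7.49 CPM in cultured replicates 1 to 3, against 26.8, 34.7, 40.4, 24.8 and 32.0 CPM in fresh replicates 1 to 5. Cultured replicate 2 reached into the fresh range, and the log2 fold change was -1.03 ± 0.59 (adjusted p = 0.236), or -1.85 (adjusted p = 0.0186) without that library. Since the others were nearer to 0, Pfkfb3 made up 82.5% ± 19.0 of the length-scaled level of the 4 genes in cultured and 41.7% ± 9.72 in fresh cells, with no overlap between libraries.

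From aldolase to lactate dehydrogenase, at least 1 gene rose at every step. Aldoa, which splits the sugar bisphosphate, had 416, 276 and 252 CPM in cultured replicates 1 to 3, against 157, 194, 134, 115 and 134 CPM in fresh replicates 1 to 5, and rose with a log2 fold change of 1.33 ± 0.30 (adjusted p = 0.0113, edgeR). Tpi1, which interconverts the triose phosphates, had 78.0, 67.5 and 36.8 CPM in cultured libraries, against 19.4, 25.0, 20.2, 11.3 and 19.3 CPM in fresh ones, a log2 fold change of 1.99 ± 0.47 (adjusted p = 0.0142). Gapdh, the oxidising step, had 171, 224 and 177 CPM in cultured libraries, against 75.8, 71.5, 50.1, 86.3 and 79.6 CPM in fresh ones, a log2 fold change of 1.20 ± 0.28 (adjusted p = 0.0133). In these genes the cultured libraries lay above every fresh one by a modest distance, and the calls were close to the limit of the design. Leaving out fresh replicate 4 gave an adjusted p of 0.0701 for Aldoa, 0.0909 for Tpi1 and 0.0644 for Gapdh, and leaving out fresh replicate 5 gave 0.0921 for Gapdh. The brain aldolase Aldoc was at 0 in all run-2 libraries and at 0.627, 1.47 and 0.720 CPM in fresh replicates 1 to 3, so no fold is given.

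The steps from phosphoglycerate kinase to enolase rose most. Pgk1 (chrX:106187100-106203699, plus strand), which makes the first ATP, had 170.0, 140.0 and 169.8 CPM in cultured replicates 1 to 3, against 32.8, 17.03, 20.9, 22.7 and 17.7 CPM in fresh replicates 1 to 5. Its lowest cultured library was well above its highest fresh one, and the log2 fold change was 2.98 ± 0.37 (adjusted p = 0.00108, edgeR). Pgam1 (chr19:41911923-41918660, plus strand), which moves the phosphate along the molecule, had 529.6, 376 and 557 CPM in cultured libraries, against 61.9, 62.0, 83.4, 26.5 and 51.3 CPM in fresh ones. It rose with a log2 fold change of 3.65 ± 0.38 (adjusted p = 0.000498) and by mean length-scaled level stood at rank 1 of the 48 genes in culture, against rank 7 in fresh cells. Its cultured mean of 275 ± 54.98 CPM per kb was within the spread of those of Pkm (269 ± 43.6), Ldha (265 ± 29.3) and Eno1 (256 ± 29.1), and it was the highest of them only in cultured replicate 3. This order leaves out counts on near-identical copies, which are described below. With copies added and before scaling by length, Eno1 had 827 ± 64.3 CPM and Pgam1 516 ± 93.1 CPM in cultured cells. The muscle form Pgam2 had 0, 0 and 6.98 CPM in cultured libraries and 0.741, 0.801, 1.38, 2.27 and 0 CPM in fresh ones, so the groups overlapped. Eno1 (chr4:150236721-150248879, plus strand), the enolase of most tissues, had 496, 585 and 473 CPM in cultured replicates 1 to 3, against 54.6, 71.3, 46.4, 45.1 and 33.4 CPM in fresh replicates 1 to 5, a log2 fold change of 3.72 ± 0.31 (adjusted p = 0.000173). The muscle enolase Eno3 had 88.6, 48.2 and 44.1 CPM in cultured libraries, against 8.15, 10.4, 8.82, 18.4 and 11.9 CPM in fresh ones, and rose with a log2 fold change of 1.99 ± 0.48 (adjusted p = 0.0152, and 0.0998 without fresh replicate 5). Cultured replicate 1 was highest for Eno3 and for the summed fibre markers, but the muscle form Pgam2 was at 0 in it. The neuronal enolase Eno2 went the other way. It had no count in cultured libraries, against 2.85, 6.28, 9.54, 2.84 and 1.37 CPM in fresh ones, and was at least 40.7-fold lower in cultured cells than in the run-2 fresh libraries (adjusted p = 0.00781), or at least 26.5-fold lower with fresh replicate 5 alone. In fresh replicate 1, the library with the lowest pericyte, Schwann, fibro-adipogenic and immune sums, Eno2 was at 0.360 times the mean of fresh replicates 2 and 3. Fresh replicates 4 and 5, with higher sums of these markers, had no more Eno2 than replicate 1. Which cells gave the Eno2 RNA was not tested. All 3 enolase genes thus passed the test, 2 upward and 1 downward.

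Pyruvate kinase and lactate dehydrogenase ended the pathway with the same direction. Pkm (chr9:59656368-59679375, plus strand) had 773, 617 and 571 CPM in cultured replicates 1 to 3, against 219, 179.8, 138, 108 and 137 CPM in fresh replicates 1 to 5, a log2 fold change of 2.41 ± 0.29 (adjusted p = 0.000879, edgeR). Counts per gene do not separate the splice forms of Pkm that quiescent and dividing cells are known to use differently, and a predicted gene, Gm49759, shares 767 exon bases with it on the same strand. Ldha (chr7:46841475-46855627, plus strand), the subunit that favours lactate, had 470.3, 518 and 415 CPM in cultured libraries, against 194, 159, 176, 111 and 123 CPM in fresh ones. No library overlapped, and the log2 fold change was 2.00 ± 0.23 (adjusted p = 0.000681). Ldhb, the subunit that favours pyruvate, had 0, 8.49 and 4.33 CPM in cultured libraries, against 17.7, 35.3, 20.4, 50.3 and 48.7 CPM in fresh ones. All cultured libraries were below all fresh ones, yet the log2 fold change of -3.53 ± 1.32 missed the threshold (adjusted p = 0.0787), and it was -2.89 (adjusted p = 0.00339) without cultured replicate 1, where Ldhb was at 0. Ldha thus made up 98.8% ± 1.10 of the length-scaled lactate dehydrogenase level in cultured and 75.9% ± 12.2 in fresh cells (SD, n = 3 and 5). The lactate exporter Slc16a3 (MCT4) had 0.527, 3.91 and 1.43 CPM in cultured libraries, below the 5.34 to 20.2 CPM of fresh ones, with a log2 fold change of -1.57 ± 0.89 (adjusted p = 0.227), or -2.54 (adjusted p = 0.0544) without cultured replicate 2. Slc16a1 (MCT1), which carries lactate and pyruvate, had 49.8, 124 and 43.1 CPM in cultured replicates 1 to 3, against 45.5, 52.2, 60.4, 79.7 and 60.8 CPM in fresh replicates 1 to 5, and these overlapped (log2 fold change 0.04 ± 0.46, adjusted p = 0.991). The transporter share of Slc16a1 was 97.5% ± 1.23 in cultured and 84.1% ± 8.01 in fresh cells, without overlap.

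Several of these glycolytic genes have near-identical copies in the mouse genome, between which the authors' counting had to divide reads. Copies with at least 90% identity over at least 200 bases were found for 13 of the 48 genes, 211 copies in all, of which 173 were of Gapdh. Copies took 40.5 to 45.9% of the joint Gapdh counts in cultured and 41.2 to 56.0% in fresh libraries. Pgk1-rs7, which matches Pgk1 at 100% over 1255 bases, had 288 ± 41.5 CPM in cultured and 49.4 ± 16.2 CPM in fresh cells (SD, n = 3 and 5), more than Pgk1 itself. The copies of Pgk1 held 63.4 to 65.7% of the joint counts in cultured and 60.6 to 78.7% in fresh libraries. Eno1b, which matches Eno1 at 99.5% over 1736 bases, had 235 ± 37.8 CPM in cultured and 25.7 ± 11.4 CPM in fresh cells. With copies added, the log2 fold changes were 3.10 ± 0.27 for Pgk1 (adjusted p = 0.000223), 3.78 ± 0.31 for Eno1 (adjusted p = 0.000163), 3.56 ± 0.38 for Pgam1 (adjusted p = 0.000546) and 1.15 ± 0.24 for Gapdh (adjusted p = 0.00855), each within 1 SE of the value without them. All 23 calls were kept. The share on copies overlapped between the groups for Gapdh, Pgk1 and Eno1, and for Pgam1 it was 3.41 to 8.48% in cultured and 8.50 to 17.8% in fresh libraries. The levels of these genes are uncertain by the share on the copies.

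**Figure D3:**
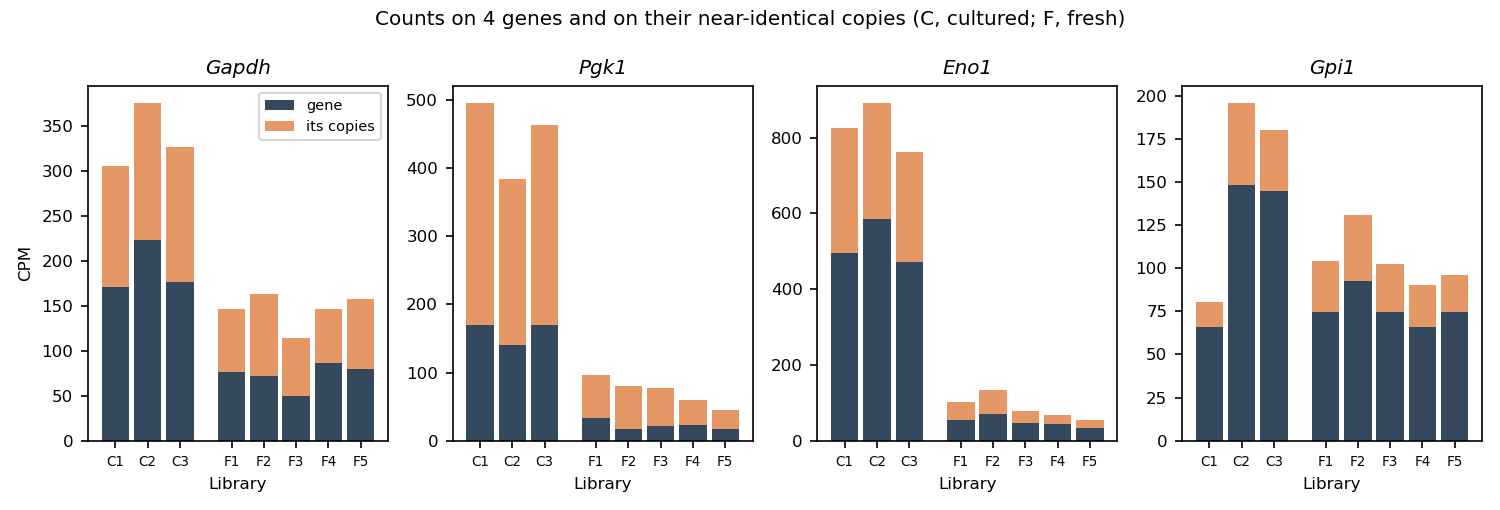
Level in CPM of Gapdh, Pgk1, Eno1 and Gpi1 (dark) and of their near-identical copies summed (orange), stacked, in cultured replicates 1 to 3 (C1 to C3) and fresh replicates 1 to 5 (F1 to F5). For Pgk1 the copies hold more of each bar than the gene, at 63.4 to 65.7% in cultured and 60.6 to 78.7% in fresh libraries.

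Hypoxia-inducible factors, which are known to drive many glycolytic genes, bind DNA at the core ACGTG, and the E-box CACGTG, which holds that core, is read by Myc. These letters were searched on both strands of the 250 bases before each transcription start in RefSeq (build GRCm38.p6), where 45 of the 48 genes had an entry. ACGTG stood in a window of 16 of the 45 genes (35.6%), against 4998 of 27025 genes in the table (18.5%), and CACGTG in 7 of the 45 (15.6%), against 6.86% in the table. A gene can have several windows, and these 45 had 66, against 32851 for the 27025 genes. Counted by window, ACGTG stood in 30.3% against 16.6% in the table, and CACGTG in 10.6% against 6.02%. By response, ACGTG stood before 5 of 14 genes that rose, 2 of 7 that fell and 9 of 24 others. CACGTG stood before 1 of 14 genes that rose (7.14%, near the share in the table), 2 of 7 that fell and 4 of 24 others. Windows of 3 genes that rose and 1 that fell, chosen after the search to show such matches, are printed 5′ to 3′ on the strand of the gene, with each match on either strand in capitals. Ldha (chr7:46845554-46845803, plus strand) has 3 matches, of which 2 are CACGTG, and Pgk1 (chrX:106186850-106187099, plus strand) has 2. Pgam1 (chr19:41911621-41911870, plus strand) has 1, and Pdk2 (chr11:95041372-95041621, minus strand) has 1, a CACGTG. Ldha and Pdk2 each have another window (chr7:46846832-46847081 and chr11:95040876-95041125) without a match, which is not printed.
Ldha: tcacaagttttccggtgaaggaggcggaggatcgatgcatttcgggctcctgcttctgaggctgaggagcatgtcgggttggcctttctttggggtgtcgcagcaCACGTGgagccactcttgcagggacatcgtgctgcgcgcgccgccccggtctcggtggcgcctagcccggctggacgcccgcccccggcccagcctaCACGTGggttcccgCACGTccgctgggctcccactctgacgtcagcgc
Pgk1: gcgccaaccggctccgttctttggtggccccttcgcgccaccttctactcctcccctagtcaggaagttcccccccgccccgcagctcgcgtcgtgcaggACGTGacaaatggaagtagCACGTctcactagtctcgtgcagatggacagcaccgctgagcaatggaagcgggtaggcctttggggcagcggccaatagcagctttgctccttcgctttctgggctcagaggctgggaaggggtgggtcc
Pgam1: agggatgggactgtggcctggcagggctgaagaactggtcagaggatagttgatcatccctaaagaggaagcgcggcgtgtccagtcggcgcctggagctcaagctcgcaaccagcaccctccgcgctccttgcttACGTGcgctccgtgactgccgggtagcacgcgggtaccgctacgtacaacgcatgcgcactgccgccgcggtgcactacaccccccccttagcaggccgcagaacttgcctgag
Pdk2: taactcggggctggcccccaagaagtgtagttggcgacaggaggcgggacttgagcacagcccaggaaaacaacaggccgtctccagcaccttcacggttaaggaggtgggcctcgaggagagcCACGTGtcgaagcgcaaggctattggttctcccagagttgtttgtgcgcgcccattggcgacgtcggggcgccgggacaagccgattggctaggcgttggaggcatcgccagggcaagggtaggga

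RNA of the pyruvate dehydrogenase complex itself rose in part. Its E2 core Dlat, which passes on the acetyl group, had 118, 134 and 67.2 CPM in cultured replicates 1 to 3, against 34.1, 31.7, 42.6, 40.2 and 34.7 CPM in fresh replicates 1 to 5, and rose with a log2 fold change of 1.505 ± 0.36 (adjusted p = 0.0159, edgeR). Its call ended when fresh replicate 4 (adjusted p = 0.0632) or fresh replicate 5 (adjusted p = 0.0994) was left out. The E3 subunit Dld, which reoxidises the lipoate arm, had 87.3, 152 and 93.2 CPM in cultured libraries, above the 31.0 to 58.4 CPM of fresh ones, and just missed the threshold (1.14 ± 0.37, adjusted p = 0.0511), which it passed in 7 of 21 alternatives. Pdhx, the protein that binds E3 to the core, had 19.8, 24.8 and 29.6 CPM in cultured libraries, above the 4.99 to 12.8 CPM of fresh ones (1.53 ± 0.61, adjusted p = 0.0965). The E1 genes overlapped between groups. Pdha1 had 79.5, 70.8 and 75.7 CPM in cultured libraries and 47.0 to 75.6 CPM in fresh ones (0.30 ± 0.29, adjusted p = 0.493), and Pdhb had 54.7, 42.1 and 47.4 CPM in cultured libraries and 31.2 to 55.3 CPM in fresh ones, with a log2 fold change of 0.00 ± 0.32. Entry of pyruvate into the mitochondrion runs through a carrier of both Mpc proteins. Mpc2 had 6.85, 4.43 and 10.5 CPM in cultured libraries, against 11.7, 13.2, 11.3, 26.5 and 24.0 CPM in fresh ones. It fell with a log2 fold change of -1.79 ± 0.55 (adjusted p = 0.0422), but cultured replicate 3 was close to the lowest fresh library and the call held in 8 of 21 alternatives. It ended without any of the fresh libraries (adjusted p = 0.0715, 0.0823, 0.0733, 0.180 and 0.138 without replicates 1 to 5) and without cultured replicate 2 (0.0739), and against run-1 fresh libraries alone the log2 fold change was -0.67. Mpc1 had 2.95, 20.4 and 9.73 CPM in cultured libraries and 7.58 to 31.7 CPM in fresh ones, which overlapped (-1.16 ± 0.77, adjusted p = 0.299).

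Of the 4 kinases that switch the complex off, 2 fell, Pdk2 and Pdk1, and 2 did not pass the test, Pdk3 and Pdk4. Pdk2 (chr11:95026258-95041354, minus strand), for which a promoter window is printed above, had 0.632, 0 and 0.204 CPM in cultured replicates 1 to 3, against 39.0, 38.9, 26.2, 39.4 and 26.6 CPM in fresh replicates 1 to 5. Its log2 fold change was -6.86 ± 1.05 (adjusted p = 0.00261, edgeR), and -8.18 without cultured replicate 1. Pdk1 (chr2:71873224-71903858, plus strand) had 0.158, 0.206 and 0.815 CPM in cultured libraries, against 13.8, 17.4, 18.8, 19.5 and 16.2 CPM in fresh ones. It fell with a log2 fold change of -5.48 ± 0.85 (adjusted p = 0.00280), or -6.55 without cultured replicate 3. Both were thus almost absent from culture and steady among fresh libraries of both runs. Within run 1, fresh replicate 1 had a pericyte sum of 806 CPM, against 3187 and 2723 CPM in replicates 2 and 3. In that 1 library Pdk2 was at 1.20 times and Pdk1 at 0.762 times the mean of replicates 2 and 3. The cells that gave the RNA of Pdk1 and Pdk2 were not tested. The most abundant kinase, Pdk4, had 69.1, 97.8 and 93.3 CPM in cultured libraries, against 154, 146, 256, 151 and 124 CPM in fresh ones. The groups did not overlap, but the log2 fold change of -0.67 ± 0.31 missed the threshold (adjusted p = 0.143). Pdk3 had 9.17, 3.45 and 2.90 CPM in cultured libraries and 1.60 to 5.43 CPM in fresh ones (0.28 ± 0.93, adjusted p = 0.872). Per length, Pdk4 made up 89.9% ± 7.69 of the kinase level in cultured and 69.5% ± 6.80 in fresh cells, and Pdk2 0.490% ± 0.594 in cultured and 23.1% ± 5.92 in fresh cells (SD, n = 3 and 5).

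Of the 2 phosphatases that switch the complex on, Pdp1 fell and Pdp2 did not pass the test. Pdp1 had 7.43, 2.73 and 1.48 CPM in cultured replicates 1 to 3, against 17.3, 21.8, 33.0, 22.3 and 26.5 CPM in fresh replicates 1 to 5. It fell with a log2 fold change of -2.65 ± 0.71 (adjusted p = 0.0241, edgeR), or -3.47 without cultured replicate 1, and the call ended when fresh replicate 4 (adjusted p = 0.0711) or fresh replicate 5 (adjusted p = 0.0966) was left out. Pdp2 had 0, 1.49 and 4.54 CPM in cultured libraries, against 36.8, 18.2, 33.2, 7.52 and 8.14 CPM in fresh ones. All cultured libraries were below all fresh ones, but fresh cells differed by run, and the log2 fold change against run 2 was -1.96 ± 1.29 (adjusted p = 0.296). Leaving out cultured replicate 1 gave -1.31 and leaving out cultured replicate 3 gave -3.32. In fresh replicate 1, with its low pericyte, Schwann, fibro-adipogenic and immune sums, Pdp1 was at 0.632 times and Pdp2 at 1.43 times the mean of fresh replicates 2 and 3. For these genes, too, the cells that gave the RNA were not tested. At the level of RNA, the E2 gene of the complex thus rose, while 2 of its 4 kinase genes and 1 of its 2 phosphatase genes fell.

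In the pentose phosphate pathway, the 2 dehydrogenases that give NADPH rose most. G6pdx (chrX:74409483-74429194, minus strand), the entry enzyme, had 183, 142 and 209 CPM in cultured replicates 1 to 3, against 25.3, 28.9, 21.7, 15.8 and 7.10 CPM in fresh replicates 1 to 5. Its log2 fold change of 3.96 ± 0.44 (adjusted p = 0.000625, edgeR) was the highest of the 14 genes that rose, and was 4.69 without fresh replicate 4. Pgd, the phosphogluconate dehydrogenase, had 117, 135 and 187 CPM in cultured libraries, against 16.5, 23.9, 14.4, 9.41 and 25.0 CPM in fresh ones, a log2 fold change of 3.09 ± 0.51 (adjusted p = 0.00361), or 3.97 without fresh replicate 5. For both, the lowest cultured library was several times the highest fresh one. The lactonase between them, Pgls, had 35.5, 5.15 and 4.54 CPM in cultured libraries and 3.47 to 6.44 CPM in fresh ones, so that only cultured replicate 1 stood out (1.30 ± 1.02, adjusted p = 0.386, and -0.27 without that library). Exons of G6pdx overlap Ikbkg on the other strand over 418 bases, and those of Pgls overlap Fam129c on the same strand over 776 bases. In the arm that rearranges the sugars, Tkt had 46.1, 58.9 and 30.3 CPM in cultured libraries, against 12.1, 12.0, 7.32, 6.51 and 10.9 CPM in fresh ones. It rose with a log2 fold change of 2.37 ± 0.54 (adjusted p = 0.0123, and 0.0843 without fresh replicate 4). Its partner Taldo1 had 31.2, 36.3 and 61.3 CPM in cultured libraries, above the 4.38 to 18.0 CPM of fresh ones, but missed the threshold (1.57 ± 0.58, adjusted p = 0.0772), which it passed without cultured replicate 1 (1.82, adjusted p = 0.0367). The isomerase Rpia, which yields ribose phosphate, had 9.91, 10.2 and 9.02 CPM in cultured libraries and 5.81 to 12.0 CPM in fresh ones (-0.14 ± 0.61, adjusted p = 0.918). The epimerase Rpe had 12.9, 31.3 and 18.8 CPM in cultured libraries and 6.34 to 20.2 CPM in fresh ones (0.40 ± 0.58, adjusted p = 0.659).

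Summed over isozymes and scaled by transcript length, the steps fell into 3 kinds. The sum was above every fresh library in all 3 cultured libraries for each step from aldolase to lactate dehydrogenase, for the pyruvate dehydrogenase subunits and for both arms of the pentose phosphate pathway. Enolases summed to 294 ± 29.7 CPM per kb in cultured and 33.8 ± 7.03 in fresh cells (SD, n = 3 and 5), phosphoglycerate mutases to 277.5 ± 58.1 and 33.4 ± 11.3, and the oxidative pentose phosphate enzymes to 150 ± 26.2 and 21.2 ± 3.62. The sum was below every fresh library in culture for phosphofructokinases (13.1 ± 6.51 CPM per kb in cultured and 37.9 ± 7.88 in fresh cells), for their Pfkfb regulators (3.48 ± 2.08 and 16.8 ± 2.74), for the pyruvate dehydrogenase kinases (27.5 ± 2.74 and 67.9 ± 13.9) and for its phosphatases (1.28 ± 0.443 and 9.41 ± 2.80). It overlapped between groups for glucose transporters, hexokinases, Gpi1, lactate transporters and the pyruvate carrier. These sums leave out near-identical copies, which in fresh libraries held 60.6 to 78.7% of the joint Pgk1 counts and 41.2 to 56.0% of the joint Gapdh counts. The levels of steps set against each other are uncertain by those shares. Without copies, the step sums of fresh cells from phosphofructokinase to pyruvate kinase lay between 11.8 and 97.5 CPM per kb. In cultured cells, phosphofructokinase at 13.1 was the only one of these steps under 37.8 CPM per kb.

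**Figure D4:**
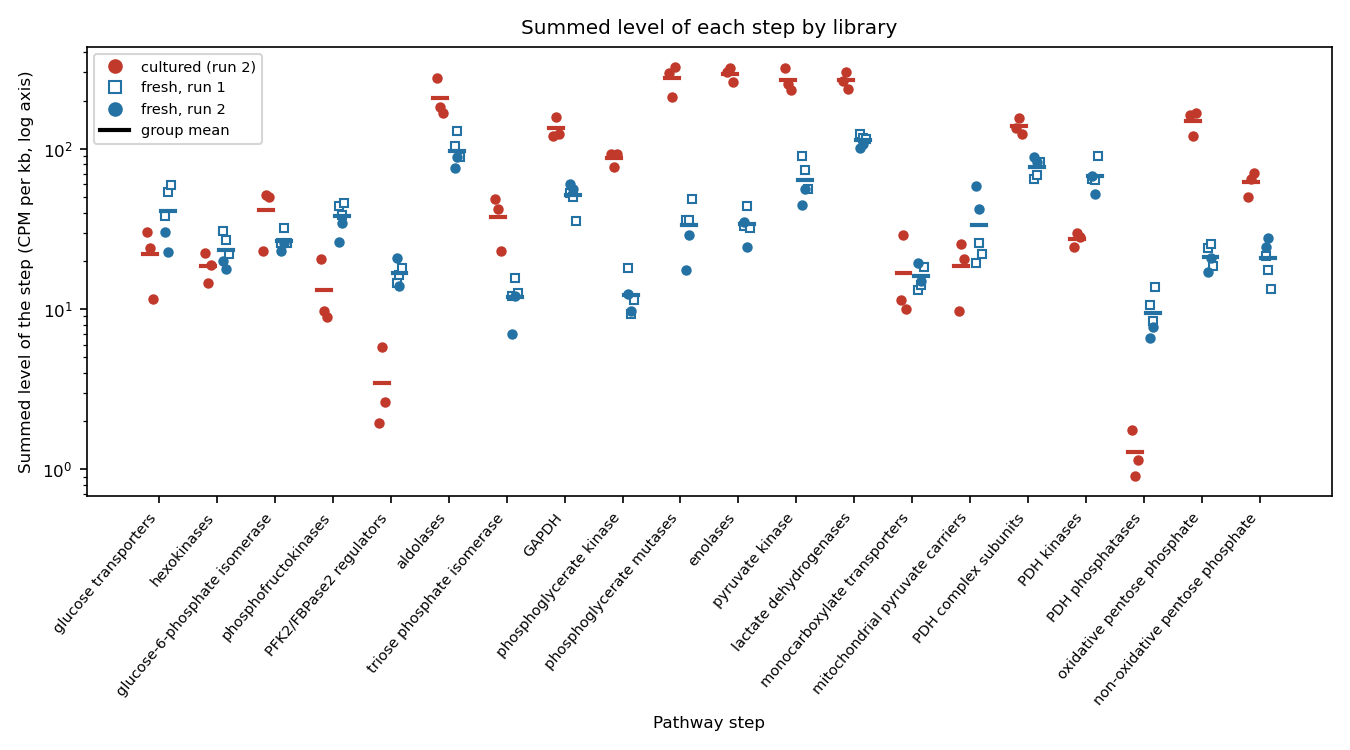
Summed level of each pathway step, in CPM per kb of transcript on a log axis, in each cultured (red) and fresh (blue, open squares for run 1 and filled circles for run 2) library, with bars at the group means. From aldolases to lactate dehydrogenases all red points lie above all blue ones, and for phosphofructokinases, their regulators, PDH kinases and PDH phosphatases all red points lie below them.

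Isozyme shares of the length-scaled level of a step also differed between the groups at several steps. These shares were not tested, and they cover the RNA of all cells in a library. Pfkl took 15.6, 41.7 and 34.6% of the phosphofructokinase level in cultured replicates 1 to 3, against 1.99 to 4.68% in fresh libraries, and Pfkp 53.7 to 62.9% in cultured and 77.6 to 88.8% in fresh libraries. Pfkp stayed the most abundant form in all 8 libraries. Among the Pfkfb genes, Pfkfb2 took 2.98 to 9.81% in cultured and 15.2 to 40.2% in fresh libraries. Eno1 took 81.2 to 90.3% of the enolase level in cultured and 63.5 to 81.2% in fresh libraries, where cultured replicate 1 and fresh replicate 1 were all but equal, so the groups were not clearly apart. Slc2a1 took 77.5 to 96.0% of the transporter level in cultured and 57.9 to 81.1% in fresh libraries, which overlapped. The shares of Pdk1 (0.125 to 0.554% in cultured and 4.02 to 6.00% in fresh libraries) and Pdk2 did not overlap between groups, while the share of Pdk4 just did. With copies added, the mean share of Eno1 was 91.4% in cultured and 81.4% in fresh cells, and without them it was 86.9% in cultured and 72.6% in fresh cells, so the fresh value moved by more than its SD of 7.76.

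**Figure D5:**
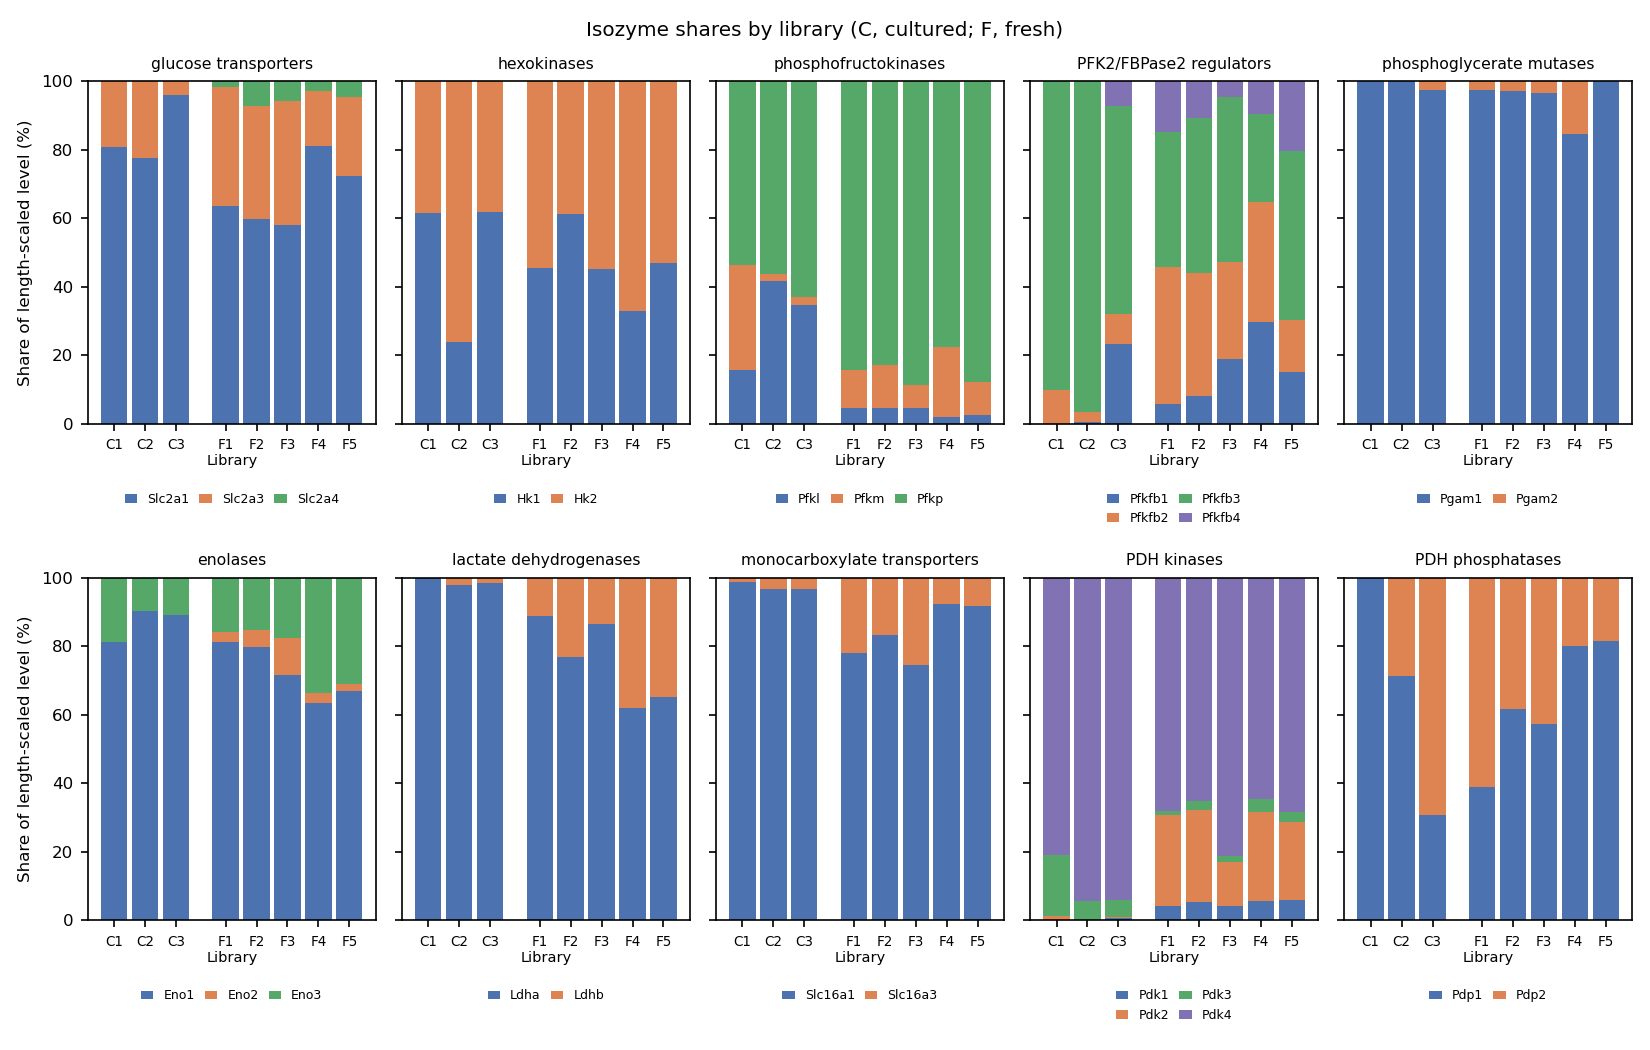
Share of each isozyme in the length-scaled level of its step, in percent, as stacked bars for cultured replicates 1 to 3 (C1 to C3) and fresh replicates 1 to 5 (F1 to F5). Ldha fills 97.8 to 100% of the lactate dehydrogenase bars in cultured and 62.0 to 89.0% in fresh libraries, and Pdk2 falls to at most 1.15% of the kinase bars in culture, against 12.9 to 26.9% in fresh libraries.

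The runs of fresh cells gave a view of how far these genes move without culture. Between fresh libraries of run 2 and run 1, none of the 48 genes passed the threshold in either direction in edgeR, and of all genes tested 18 rose (0.0945%) and 18 fell (0.0945%). At an unadjusted p under 0.05 in the same fit there were 4 of the 48. The share of all genes at that threshold was not counted, so this number has nothing to be read against. The largest differences among genes with counts in both runs were in Pdp2 (7.83 ± 0.442 CPM in run 2 and 29.4 ± 9.82 CPM in run 1, n = 2 and 3) and Slc2a3 (20.0 ± 1.07 CPM in run 2 and 69.7 ± 16.98 CPM in run 1), with adjusted p of 0.644 and 0.378. With 2 libraries of run 2, the comparison could show only large differences.

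Other genes of the same pathways, from a list of 73, were on 72 lines, and 59 of them were tested. In edgeR 8 rose and 10 fell, where 8.87% of all genes tested rose and 18.0% fell. Those that rose included Eno1b and G6pd2, near-identical copies of Eno1 (99.5% identity) and G6pdx (93.2% identity), so their counts are not separate from those genes. G6pd2 is named after its values were seen. Among those with a mean of at least 10 CPM in a group, the genes with the largest rise besides Eno1b were Gpd2, of the glycerol phosphate shuttle (104 ± 15.2 CPM in cultured and 19.2 ± 3.29 CPM in fresh cells, log2 fold change 2.37 ± 0.34, adjusted p = 0.00206), Mpi, which brings mannose into glycolysis (2.28 ± 0.72, adjusted p = 0.0456), Lias, which makes the lipoate of pyruvate dehydrogenase (1.99 ± 0.63, adjusted p = 0.0471), and Prps1, which turns ribose phosphate into the nucleotide precursor (1.75 ± 0.54, adjusted p = 0.0429). Of these Gpd2 and Eno1b passed without each library in turn, while Mpi, Lias and Prps1 each lost the call without fresh replicate 4 (adjusted p = 0.206, 0.222 and 0.211). Mpi also lost it without any other fresh library or cultured replicate 2 or 3 (0.0544 to 0.138), Lias without fresh replicates 1, 2 or 3 or cultured replicates 2 or 3 (0.0548 to 0.106), and Prps1 without any other fresh library or cultured replicate 1 (0.0542 to 0.0732). Without fresh replicate 5 the log2 fold change was 3.02 for Lias and 2.34 for Prps1. By the same limit on level, those that fell most included the transporters Slc2a13, which had no count in culture and was at least 270.5-fold lower than in run-2 fresh libraries (adjusted p = 0.00135), and Slc2a12 (0.925 ± 0.859 CPM in cultured and 49.1 ± 13.98 CPM in fresh cells, -5.93 ± 0.84, adjusted p = 0.00184). Gfpt2, which starts the hexosamine branch, fell to 0.377 ± 0.654 CPM in cultured cells, against 129 ± 27.7 CPM in fresh cells (-8.16 ± 1.20, adjusted p = 0.00219). All 22 counts of Gfpt2 in culture were in replicate 2. The log2 fold change of Slc2a12 was -6.89 without the same library.

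Of 18 regulators of these pathways 1 rose and 5 fell, where 8.87% of all genes tested rose and 18.0% fell. The glucose-sensing factor Mlxipl (ChREBP) had 0.340 ± 0.545 CPM in cultured and 49.5 ± 15.9 CPM in fresh cells (-6.91 ± 1.20, adjusted p = 0.00454, edgeR), and -10.28 without cultured replicate 3. Ppargc1a, a coactivator of mitochondrial genes, had 0.348 ± 0.267 CPM in cultured and 16.7 ± 4.86 CPM in fresh cells (-5.63 ± 0.88, adjusted p = 0.00293), and -6.31 without cultured replicate 1. The other 4 that passed were named after their values were seen. For 12 of the 18 the adjusted p was 0.05 or more. Those 12 are not named, so the genes given here do not stand for their whole families. Of the hypoxia-inducible factors, Epas1 had 2.32 ± 2.25 CPM in cultured and 89.0 ± 40.4 CPM in fresh cells (-5.39 ± 1.30, adjusted p = 0.0154). It had only 19.5 CPM in fresh replicate 1, the library with the lowest pericyte, Schwann, fibro-adipogenic and immune sums, and the source of the Epas1 RNA was not tested. Leaving out cultured replicate 1 gave -4.75 and leaving out cultured replicate 3 gave -6.24, and its call ended without fresh replicate 4 (adjusted p = 0.0517) or 5 (adjusted p = 0.0603). Hif3a had no count in culture and was at least 77.2-fold lower than in run-2 fresh libraries (adjusted p = 0.00522). Their partner Arnt fell to 40.3 ± 9.31 CPM in cultured cells, against 180 ± 48.6 CPM in fresh cells (-1.76 ± 0.27, adjusted p = 0.00271). Prkaa1, a catalytic subunit of the energy sensor AMPK, rose with 98.2 ± 9.03 CPM in cultured and 38.2 ± 8.79 CPM in fresh cells (1.08 ± 0.29, adjusted p = 0.0234), and its call ended without fresh replicates 4 or 5 (adjusted p = 0.0900 and 0.108) and without cultured replicate 3 (adjusted p = 0.0511).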

How the data were processed

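RNA-seq was measured in sorted mouse muscle stem cells; per the labels' protocols RNA was isolated with the Qiagen RNeasy Micro kit, amplified with NuGEN Ovation and made into Illumina libraries. Expected counts for every gene were deposited in 1 table. The submitters' processing notes name STAR, RSEM and mm10, with versions, annotation and strand setting not given in the sources used here. Of the deposited expected counts above 0, 50.1% were not whole, and all were rounded. Lines of ERCC spike-ins (92 of 45798) were left out. RSEM shares out a read that several genes could give, so values of near-identical genes are uncertain. The labels name no molecular identifiers, so bounds cover counting error only.

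Genes were kept by filterByExpr (19054), scaled by TMM (factors 0.790 to 1.18) and tested with edgeR 4.0.16 in R 4.3.3 by the quasi-likelihood test with run and culture as terms, 5 residual degrees of freedom and Benjamini-Hochberg adjustment over all genes tested at 0.05. CPM use the scaled library size, and CPM per kb use the APPRIS principal transcript of GENCODE M21 (GRCm38, the same build as mm10), which matched 98.8% of identifiers and gave coordinates. Standard errors were derived from each log2 fold change and its F value and are approximate. Where a gene had no count in culture, the fold is a bound against 3 counts over the 3 cultured libraries. Shares and sums were not tested. Copies were found with BLAST 2.17.0. Promoter windows are RefSeq's.

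All 8 libraries and the labels' groups were used. No pair of replicates agreed within sampling noise (chi-square per degree of freedom at least 41.1). Values per library are given for called genes and leading isozymes, and other pathway genes are named if called with at least 10 CPM in a group, up to 5 in each direction. The 48 genes and the lists were chosen with earlier results of these data known. The fits were tested on simulated data. Alternatives covered scaling, filters, DESeq2 1.42.0, covariates, libraries and copies, of which summing copies matched by sequence and the use of all merged exons as length were chosen after seeing the data.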

Additional observations from a re-analysis of the deposited data

Results flagged for a closer look

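Pdk4 had 256 CPM in fresh replicate 3, against 124 to 154 CPM in the other 4 fresh libraries. The gap to the nearest of them was 0.772 of the range of the group, above Dixon's 95% critical value of 0.71 for 5 samples. It was the only such library among 48 groups tested, of which chance alone would flag about 1 in 20. The 3 cultured libraries, at 69.1, 97.8 and 93.3 CPM, lay below all fresh ones with or without it, and the log2 fold change against run 2 does not use it directly.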

How the results depend on the processing

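Of the 23 calls, 10 held under all 21 alternatives, 7 higher (Pgk1, Pgam1, Eno1, Pkm, Ldha, G6pdx and Pgd) and 3 lower (Pfkfb2, Pdk1 and Pdk2), and no called direction reversed. Against a log2 fold change of 1 the test called 909 genes higher, 8 of them among the 48. Run 2 alone, with fewer samples, gave 1013 higher and 1767 lower of all genes, and kept 16 of the 23 calls. Leaving out each library in turn gave 896 to 2198 genes higher and 2441 to 3965 lower, with 8 to 17 and 5 to 11 of the 48 genes. The lowest counts came without fresh replicates 4 or 5, which leaves 1 run-2 fresh library that is assumed to vary like the rest. With the replicate number as a block, which sets cultured against run-1 fresh libraries with 2 residual degrees of freedom, 1081 genes were higher and 1401 lower, and 10 and 4 of the 48. Samples with the same number correlated at 0.0296, 0.0103 and 0.0108 in their deviations, under 0.1, so the numbers were not taken to pair them, although every sample correlated best with its own number, a hint from the data and not the design. The block ended the calls of Slc2a4 (adjusted p = 0.0631), Eno2 (0.0632), Aldoa (0.0714), Tpi1 (0.0725), Dlat (0.0615), Pdp1 (0.0725), Tkt (0.051), Pfkl, Pfkfb4 and Mpc2. The DESeq2 test called 17 of the 48 genes higher and 11 lower, and included all 23. It also called more of all genes, 2498 higher and 4342 lower, against 1691 and 3431 in the main fit. Counts at or near 0 in culture limit the folds of several genes, among them Pfkfb1, Pfkfb4, Pgam2, Pdp2, Pdk1, Pdk2 and Ldhb.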
